A study of Mus musculus with 7 samples.

Results

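The 40 genes described here encode acute phase proteins of the liver and the IL-6/STAT3 pathway that drives them. They were named by symbol, and all 40 were found among the 14851 genes of the liver table. By their known roles, 23 were grouped as positive acute phase genes, which rise in plasma or liver during inflammation, and 6 as negative ones, which fall. A further 6 encode other secreted or surface proteins, all but *Pigr* of the same families, and 5 encode signalling proteins.

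The study compared 3 *Albumin-Cre; p53* WT livers (WT) with 4 from *Albumin-Cre; p53* FL/FL animals (FL), each from its own mouse. In FL mice, Cre recombinase driven by the *Albumin* promoter removes a floxed part of *Trp53* in the liver, a loss the study calls hepatocyte-specific. Which other cells of the liver keep the gene was not examined here. WT mice carried the same Cre and an intact *Trp53*, and some mice of the study also carried a red fluorescent reporter allele. All 7 were male C57BL/6J (N10) mice of about 70 days. Each received a single intraperitoneal dose of CCl4 (1 mL/kg of a 20% stock in corn oil), a solvent that hepatocytes turn into reactive radicals, and was sampled 8 h later. Untreated livers were not analysed here, so every comparison is between genotypes in injured liver. The animal codes in the labels put the WT mice under 1 prefix and the FL mice under 2 others, so whatever the prefix stands for and the genotype cannot be told apart.

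In the acute phase response, cytokines released by macrophages and other cells reach hepatocytes and change what they secrete. IL-6 binds its receptor (*Il6ra*) and the shared subunit gp130 (*Il6st*), JAK kinases then phosphorylate STAT3, and STAT3 switches on genes such as the fibrinogens together with its own inhibitor *Socs3*. IL-1 acts through *Il1r1* and NF-kB, with C/EBP factors, on the serum amyloid A genes, while albumin and transthyretin are made less.

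Values are normalised counts, which the authors obtained by dividing the reads of each gene by a size factor of the liver, and 1 read was worth between 0.812 and 1.38 of them. The livers had an estimated 11.9 to 19.5 M reads on genes. *Trp53*, the targeted gene, had 131, 130, 217 and 110 normalised counts in FL and 876, 688 and 831 in WT livers, so the labels held (log2 fold change -2.47, SE 0.23, limma adjusted p = 0.0447). This call was lost when any single liver other than FL replicate 3 was left out. FL replicate 3 and WT replicate 2 stood apart from the other livers in an earlier analysis of these data, and values that rest on them are also given without one or both. The 10 hepatocyte markers summed to between 309406 and 346353 in FL and between 309907 and 349474 in WT livers, and all 10 were above 0 in every liver. Among them *F2* and *Tdo2* were higher and *Cyp3a11* lower in every FL liver than in any WT liver. *Cyp2e1* was at 17110 in FL replicate 3 and 8415 in WT replicate 2, against 37306 to 56150 in the other livers. *Apob* was also the lowest of its genotype in both, whereas *Ass1*, *Cps1*, *F2*, *Tat* and *Pck1* were the highest. The part of these differences in the members' values was not tested. The 10 macrophage and Kupffer cell markers summed to between 6544 and 10129 in FL livers, highest in FL replicate 3, and to 7080, 16532 and 6392 in the WT livers. The 8 stellate cell markers were at 13511 in WT replicate 2 and between 5295 and 6802 elsewhere. The 10 proliferation genes were at 1446 in WT replicate 2, at 407 in FL replicate 3 and between 129 and 190 elsewhere. The 7 endothelial markers lay between 2514 and 3536, and the 6 bile duct markers between 603 and 1482, lowest in FL replicate 3. Most of the bile duct sum came from *Sox9* and *Spp1*, and its genes differed in direction. *Krt19* (6 to 21 in FL, 26 to 128 in WT livers) and *Krt7* (2 to 18 and 28 to 33) were lower in every FL liver than in any WT liver, and *Sox9* (297 to 763 and 204 to 261) was higher, and their part in the members' values was not tested. The 8 lymphocyte markers reached 253 in WT replicate 2 and 141 in FL replicate 3, against 43 to 64 elsewhere. The neutrophil list summed to between 44 and 126 in FL and between 66 and 183 in WT livers, and this sum leaves out its defining markers *Ly6g*, *Mpo*, *Elane* and *Camp*, which were not analysed here. In bulk tissue, fewer cells of a type and less RNA per cell cannot be told apart.

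By the mean of the log2 values, 38 of the 40 members were higher in FL livers and 2, *Steap4* and *Il1rn*, were lower, whereas 51.6% of the 12545 genes tested were higher. Among the 2606 tested genes with a mean of at least 1000, 71.8% were higher in FL. The median log2 fold change of the members was 0.28, against 0.01 over all genes tested and 0.07 over those with a mean of at least 1000. No member passed an adjusted p of 0.05 in limma (0 of 40, smallest adjusted p 0.999), where 2 genes in all did (0.0159%). The study itself, with another test (DESeq2), reported 13 genes at an adjusted p under 0.05 between these livers. At an unadjusted limma p under 0.05, 6 members were higher in FL (*Lrg1*, *Serpina3n*, *Lbp*, *Serpina3m*, *Ttr* and *Fgg*) and 0 were lower, where 1.59% of all genes were higher and 1.6% lower. In 5 of 40 members (12.5%) every FL liver was above every WT liver (*Lrg1*, *Serpina3n*, *Lbp*, *Ttr* and *Itih1*), against 2.77% of all genes and 4.83% of those with a mean of at least 1000. No member had every FL liver below every WT liver, against 1.98% of all genes. Without FL replicate 3 and WT replicate 2, 33 of 40 members were higher in FL (47.0% of all genes), 13 at an unadjusted p under 0.05 (4.57%), and 0 were called at an adjusted p under 0.05 (0.0487%).

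**Figure D1:**
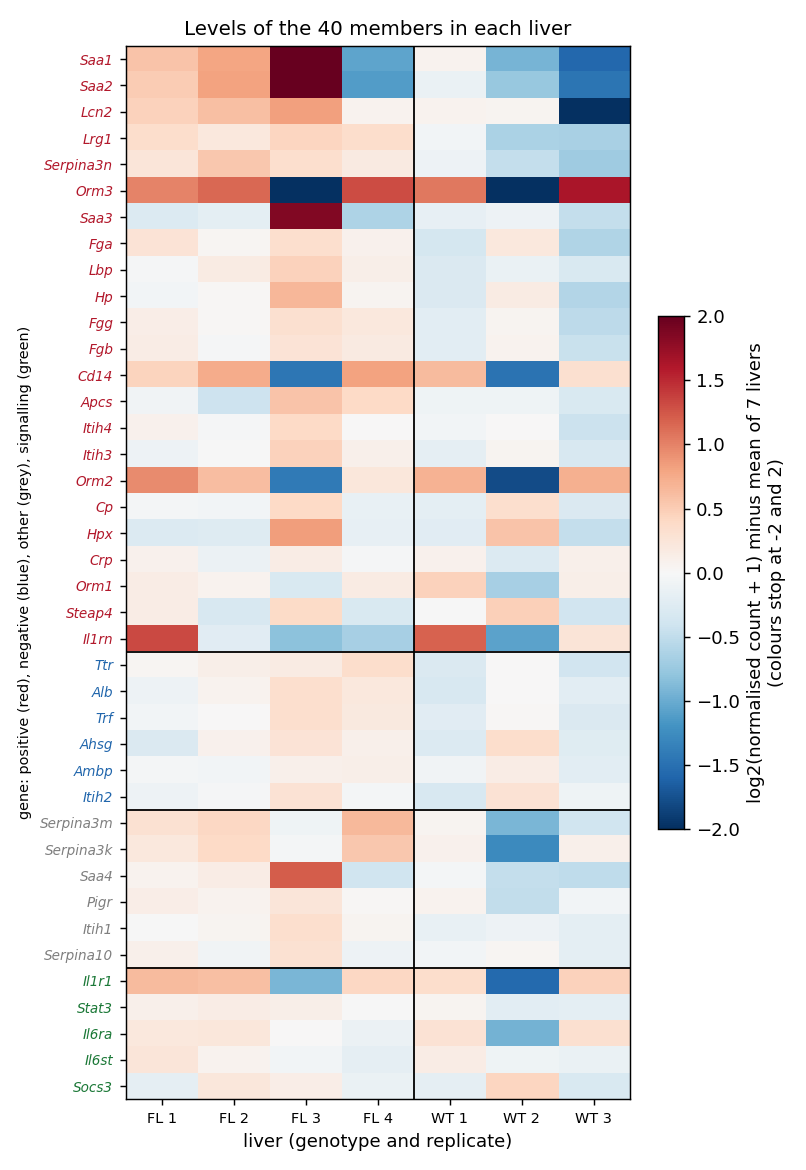
Level of each of the 40 members in each liver, as log2(normalised count + 1) minus the mean of the gene over the 7 livers, with livers in columns and genes in rows grouped by role. FL replicate 3 was the highest liver for 22 members and WT replicate 3 the lowest for 22, while *Orm3*, *Orm2* and *Cd14* were low in both FL replicate 3 and WT replicate 2.

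The share of members that were higher in FL depended on the scaling. With TMM scaling (from the trimmed mean of log ratios between livers) it was again 38 of 40. When all livers were brought to 1 distribution of values (quantile normalisation), 29 of 40 members were higher in FL, against 52.3% of all genes. The median of the members was then 0.18, and that of all genes 0.01. With all livers scaled to equal totals, an alternative added after the data were seen, 29 of 40 were higher, against 25.4% of all genes. This scaling moved the median of all genes to -0.10, and that of the members was 0.17. The sum of normalised counts was 15851380 to 16554427 in FL and 14123213 to 15538815 in WT livers, and the 40 members alone made up 12.9% to 16.8% of it in FL and 11.6% to 14.96% in WT livers. Albumin accounted for most of that share, at 7.02% to 9.54% in FL and 6.23% to 8.50% in WT livers. *Lrg1* and *Serpina3n* kept every FL liver above every WT liver under each of these scalings.

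**Figure D2:**
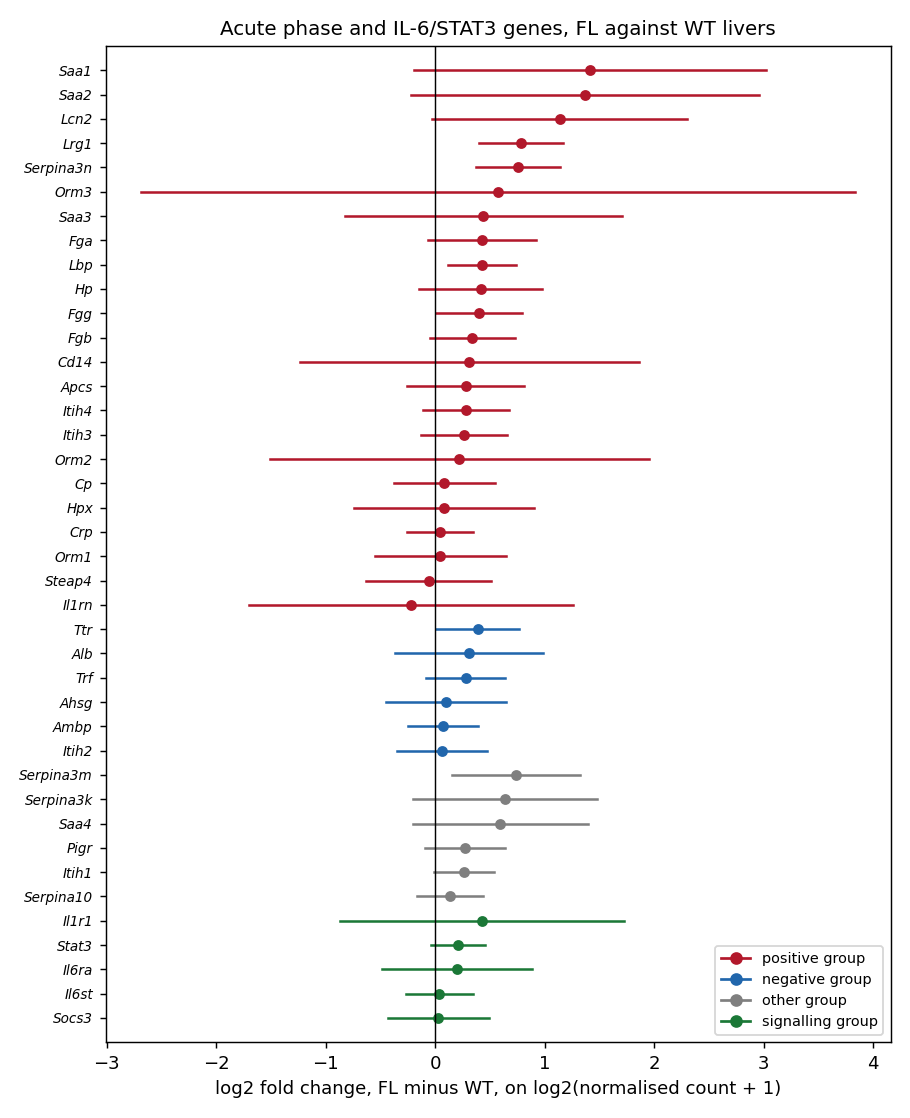
Log2 fold change of each member, FL minus WT, from limma on log2(normalised count + 1), with 95% intervals as bars and genes coloured by role. The intervals of *Lrg1* (0.40 to 1.17) and *Serpina3n* (0.37 to 1.14) lay above 0 and that of *Orm3* (-2.68 to 3.83) was the widest, and no gene passed the adjusted test.

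The pair with the smallest p among the members were *Lrg1* and *Serpina3n*. *Lrg1* (chromosome 17, 56119678 to 56122001, minus strand) encodes leucine-rich alpha-2-glycoprotein, a secreted protein that modulates TGF-beta signalling and is induced by IL-6. It had 13471, 12244, 14209 and 13434 normalised counts in FL and 10128, 6821 and 6699 in WT livers. The FL livers lay close together and all above the highest WT liver, WT replicate 1. Its means were 13339.5 ± 813 (SD, n = 4) and 7883 ± 1945 (SD, n = 3), a 1.72-fold difference on the log scale of the fit (log2 fold change 0.78, SE 0.17, limma unadjusted p = 0.0015, rank 11 of 12545 genes). Leaving out each liver in turn gave 0.68 to 0.98, and without FL replicate 3 and WT replicate 2 it was 0.66.

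*Serpina3n* (chromosome 12, 104406729 to 104414329, plus strand), a secreted serine protease inhibitor related to human alpha-1-antichymotrypsin, was at 14296, 17428, 15191 and 13587 in FL and at 11166, 8618 and 7381 in WT livers. Again the lowest FL liver lay above the highest WT liver. The means were 15126 ± 1669 (SD, n = 4) and 9055 ± 1930 (SD, n = 3), with a log2 fold change of 0.76 (SE 0.17, limma unadjusted p = 0.0020, rank 16). Permuting the genotypes over the livers, which allows 35 splits, gave an exact two-sided p of 0.029 for both genes, the smallest possible here. Both genes were picked for their small p and do not overlap between genotypes, so this exact p adds no further support. Of the 36-base stretches of the *Serpina3n* transcript, 16.9% also occur in other genes, mostly of the *Serpina3* cluster, so its count is uncertain.

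The bases before the start of these 2 genes are shown because they were the members with the smallest p, and those of the fibrinogen and serum amyloid genes below because the genes of each family varied together from liver to liver. All come from RefSeq on GRCm38.p6, where a window was matched for 31 of the 40 members. They read 5′ to 3′ on the strand of the gene, and where GENCODE places the gene's start further upstream only the bases before that start are given. Capitals mark matches, on either strand, to 5 motifs: TTCNNNGAA (STAT3 site), CTGGGAA (core of the IL-6 response element), TTNNGCAAT (C/EBP site), GGG and TTTCC with any 2 bases between them (NF-kB site), and GTTAAT and ATT with any 1 base between them (HNF1 site). The *Lrg1* sequence is chr17:56122002-56122196 (minus strand) and the *Serpina3n* sequence chr12:104406458-104406707 (plus strand).
Lrg1: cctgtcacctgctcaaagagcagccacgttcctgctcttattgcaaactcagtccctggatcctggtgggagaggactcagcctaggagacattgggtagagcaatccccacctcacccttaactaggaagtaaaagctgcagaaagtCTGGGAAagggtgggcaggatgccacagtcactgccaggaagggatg
Serpina3n: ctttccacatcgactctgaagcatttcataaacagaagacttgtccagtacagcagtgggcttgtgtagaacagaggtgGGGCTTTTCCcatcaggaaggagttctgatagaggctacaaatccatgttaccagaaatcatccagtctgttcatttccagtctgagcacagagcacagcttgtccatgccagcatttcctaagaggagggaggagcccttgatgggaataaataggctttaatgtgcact
*Lrg1* held an IL-6 core 102 bases before its RefSeq start and *Serpina3n* an NF-kB match 171 bases before it, and neither held a STAT3 match in these windows.

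Over the 250 bases upstream of the 31 members, the STAT3 letters were found in 6 (19.4%, against 7.18% of 27025 windows of all genes), namely *Apcs*, *Fga*, *Fgb*, *Itih4*, *Socs3* and *Steap4*. The IL-6 core was found in 6 as well (19.4% against 9.08%), namely *Apcs*, *Fgb*, *Fgg*, *Il1rn*, *Lrg1* and *Steap4*. The C/EBP letters were found in *Ahsg*, *Saa1* and *Saa2* (9.68% against 1.95%), the NF-kB letters in *Serpina3n* and *Steap4* (6.45% against 1.399%) and the HNF1 letters in *Cp* (3.23% against 0.411%). The matches of *Saa1* and *Saa2* have the same letters in windows that are near copies (94.8% without an edit), so they are not separate cases. Matches to different motifs did not overlap in any of these windows. Every sequence printed here holds a match. The windows of *Orm2* and *Orm3*, genes low in both FL replicate 3 and WT replicate 2, held none and are not printed. A match describes the letters only, and no binding was measured.

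The 3 fibrinogen chains are encoded side by side on chromosome 3 and assemble into the clotting protein that IL-6 raises in plasma. *Fga* (83026076 to 83033627, plus strand) was at 72355, 61451, 75530 and 63743 in FL and at 47097, 69276 and 39641 in WT livers. *Fgb* (83040141 to 83049863, minus strand) was at 54970, 48816, 59757 and 55987 in FL and at 42850, 51912 and 36345 in WT livers. *Fgg* (83007724 to 83015049, plus strand) was at 41397, 38237, 46904 and 43808 in FL and at 32453, 39118 and 26359 in WT livers. For each chain FL replicate 3 was the highest of all livers and WT replicate 3 the lowest, and WT replicate 2 overlapped the FL livers. The log2 fold changes were 0.43 (SE 0.21) for *Fga*, 0.34 (SE 0.17) for *Fgb* and 0.40 (SE 0.17) for *Fgg*, with limma unadjusted p of 0.081, 0.076 and 0.047, and all 3 stayed above 0 under every scaling. Without FL replicate 3 and WT replicate 2 they were 0.60, 0.43 and 0.49, each chain without overlap between the genotypes, where 12.8% of all genes also had every remaining FL liver above every WT liver.

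The chains kept nearly fixed proportions within a liver. Per kilobase of transcript, the ratio of *Fgg* to *Fgb* ran from 1.63 to 1.76 over the 7 livers and that of *Fga* to *Fgb* from 1.61 to 1.97. The upstream sequences are chr3:83025903-83026075 (*Fga*, plus strand), chr3:83049864-83050113 (*Fgb*, minus strand) and chr3:83007474-83007723 (*Fgg*, plus strand), and each holds a STAT3 match, an IL-6 core or both.
Fga: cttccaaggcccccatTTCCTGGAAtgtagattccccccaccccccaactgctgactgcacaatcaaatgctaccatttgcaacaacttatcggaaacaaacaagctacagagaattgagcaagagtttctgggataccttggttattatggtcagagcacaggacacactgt
Fgb: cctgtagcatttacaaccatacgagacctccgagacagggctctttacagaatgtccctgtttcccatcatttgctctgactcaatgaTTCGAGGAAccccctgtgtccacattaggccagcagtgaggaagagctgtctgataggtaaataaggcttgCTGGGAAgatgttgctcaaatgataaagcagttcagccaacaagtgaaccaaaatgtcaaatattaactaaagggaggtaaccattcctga
Fgg: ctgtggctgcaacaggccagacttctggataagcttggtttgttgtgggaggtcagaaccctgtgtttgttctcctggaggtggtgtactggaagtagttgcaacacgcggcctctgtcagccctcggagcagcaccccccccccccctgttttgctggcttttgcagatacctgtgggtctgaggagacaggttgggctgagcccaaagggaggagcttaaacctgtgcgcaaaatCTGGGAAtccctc
The STAT3 letters lay 234 bases before the RefSeq start in *Fga* and 162 in *Fgb*, and the IL-6 core 91 bases before it in *Fgb* and 13 in *Fgg*.

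The serum amyloid A genes, on chromosome 7, encode small proteins carried on high-density lipoprotein. *Saa1* (46740497 to 46742980, minus strand) was at 1658, 1929, 4920 and 538 in FL and at 1176, 586 and 378 in WT livers. *Saa2* (46751790 to 46754313, plus strand) was at 691, 843, 2157 and 222 in FL and at 440, 287 and 176 in WT livers. In both genes FL replicate 3 was far above the other livers and FL replicate 4 lay among the WT livers, so the genotypes overlapped. *Saa1* differed 13.02-fold between its highest and lowest liver and *Saa2* 12.3-fold. They had the largest log2 fold changes of the members, 1.42 (SE 0.70, 95% interval -0.19 to 3.03) for *Saa1* and 1.37 (SE 0.69, -0.22 to 2.95) for *Saa2*, and the exact permutation p was 0.171 for each. Without FL replicate 3 alone these values were 0.91 and 0.84, without FL replicate 3 and WT replicate 2, 0.84 and 0.86, and without FL replicate 4, 1.97 and 1.94.

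**Figure D3:**
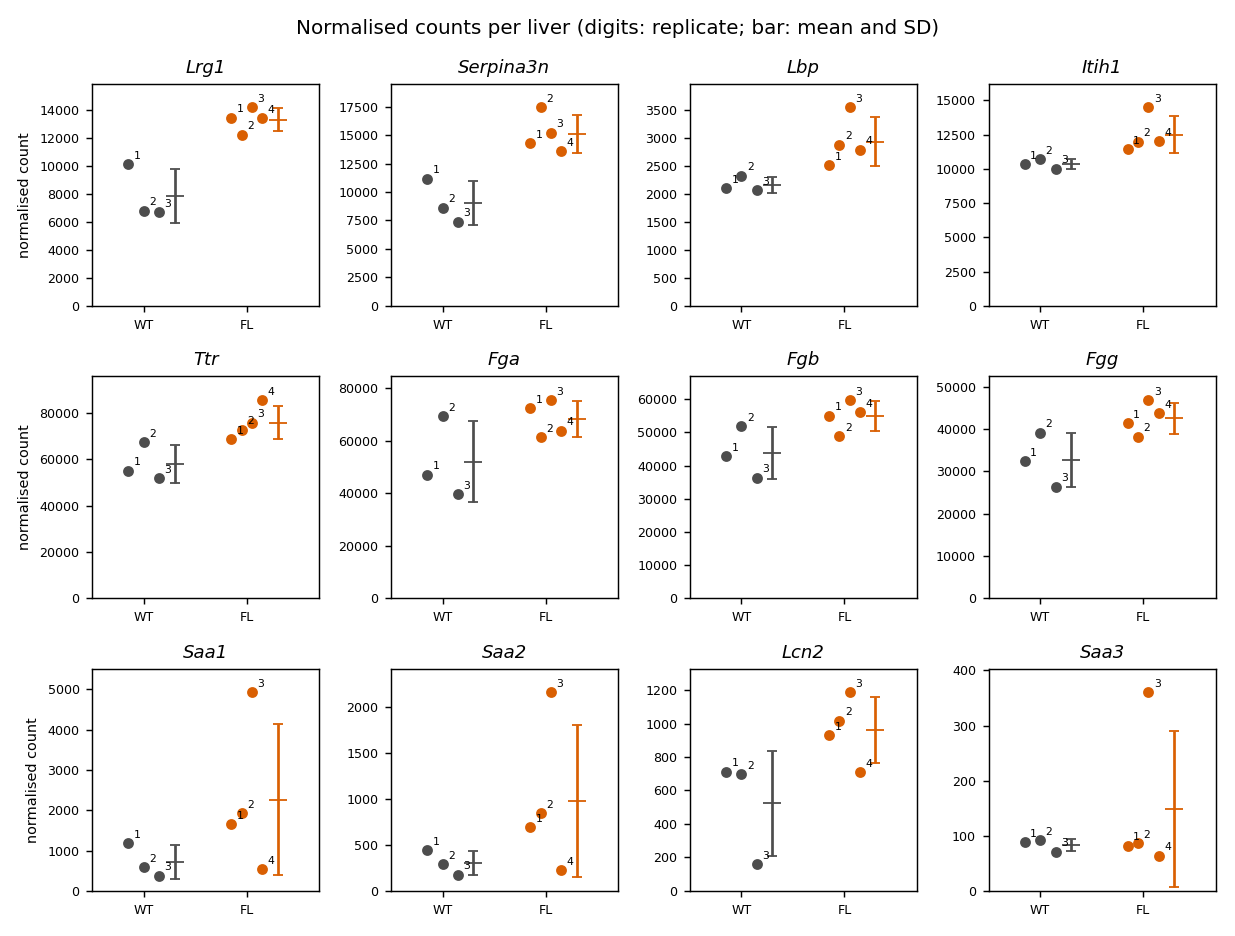
Normalised counts of 12 members in each liver, on linear axes from 0, with WT livers in grey and FL livers in orange, digits for the replicate, and the mean with SD beside the points. *Lrg1*, *Serpina3n*, *Lbp*, *Itih1* and *Ttr* did not overlap between genotypes, whereas *Saa1* in FL replicate 4, at 538, lay below 2 of the 3 WT livers.

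*Saa1* and *Saa2* moved together, with a ratio of 2.04 to 2.67 between them in the 7 livers. Of the 36-base stretches of their transcripts, 24.6% for *Saa1* and 17.0% for *Saa2* occur in other genes, mostly in each other, so the split of reads between them is uncertain. The bases before their starts are also close copies, with 13 edits between the windows of 250 bases (94.8% without an edit). The sequences below are chr7:46742981-46743230 (*Saa1*, minus strand) and chr7:46751583-46751789 (*Saa2*, plus strand).
Saa1: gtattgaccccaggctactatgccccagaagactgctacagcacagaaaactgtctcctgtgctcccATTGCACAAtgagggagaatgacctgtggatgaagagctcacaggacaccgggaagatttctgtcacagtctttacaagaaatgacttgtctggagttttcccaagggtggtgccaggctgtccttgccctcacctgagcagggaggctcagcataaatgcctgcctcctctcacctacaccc
Saa2: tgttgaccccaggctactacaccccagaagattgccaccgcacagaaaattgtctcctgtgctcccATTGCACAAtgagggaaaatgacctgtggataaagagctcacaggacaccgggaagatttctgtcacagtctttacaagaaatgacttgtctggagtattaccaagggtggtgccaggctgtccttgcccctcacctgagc
The C/EBP match, on the opposite strand, lay 183 bases before the RefSeq start in *Saa1* and 184 in *Saa2*.

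*Saa3*, the form made mainly outside hepatocytes, was at 82, 86, 360 and 64 in FL and at 88, 92 and 71 in WT livers. FL replicate 3 alone stood above all others, and without it the log2 fold change went from 0.44 to -0.11. *Saa4*, the constitutive form, was at 2626, 2768, 5754 and 1883 in FL and at 2430, 1784 and 1764 in WT livers, with FL replicate 3 again the highest (log2 fold change 0.60, SE 0.35, and 0.28 without that liver). Macrophage markers summed to 10129 in FL replicate 3 against 6544 to 7814 in the other FL livers. In WT replicate 2 they summed to 16532, with *Saa3* at 92. Their part in the *Saa3* values was not tested.

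*Lcn2* encodes lipocalin 2, which binds bacterial siderophores and is induced by IL-6 and IL-1 in hepatocytes. It was at 932, 1018, 1186 and 709 in FL and at 711, 697 and 159 in WT livers. Among FL livers only replicate 4 lay within the WT range, and WT replicate 3 was the lowest liver by far. The log2 fold change was 1.14 (SE 0.50, 95% interval -0.03 to 2.30), and it was 0.42 without WT replicate 3.

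*Lbp* encodes lipopolysaccharide-binding protein and *Cd14* the receptor to which it hands its ligand. *Lbp* was at 2515, 2874, 3542 and 2785 in FL and at 2104, 2325 and 2063 in WT livers. Every FL liver was above every WT liver, with a log2 fold change of 0.43 (SE 0.13, limma unadjusted p = 0.013, exact permutation p = 0.057). Without overlap the exact p can exceed its minimum, because another split of the livers gave at least as large a difference of means. *Cd14* was at 1492, 1828, 399 and 1900 in FL and at 1689, 391 and 1360 in WT livers, so that FL replicate 3 and WT replicate 2 lay at -2.11 and -1.95 from the others of their genotype on the log2 scale. Its log2 fold change was 0.31 over all livers and 0.19 without those 2.

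Haptoglobin (*Hp*) and hemopexin (*Hpx*) bind free haemoglobin and haem. *Hp* was at 39648, 41831, 65285 and 42768 in FL and at 33506, 46076 and 27292 in WT livers. *Hpx* was at 78597, 80012, 169915 and 84829 in FL and at 80989, 140652 and 68684 in WT livers. In both, FL replicate 3 was the highest FL liver and WT replicate 2 the highest WT liver. The log2 fold changes were 0.41 (SE 0.24) for *Hp* and 0.08 (SE 0.36) for *Hpx*, the latter turning to -0.06 with quantile normalisation, -0.03 with equal totals and -0.18 without FL replicate 3. Per kilobase of transcript the ratio of *Hpx* to *Hp* varied from 1.72 to 2.74.

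The orosomucoids, *Orm1*, *Orm2* and *Orm3* on chromosome 4, encode alpha-1-acid glycoproteins, which carry basic drugs in plasma. *Orm1* was at 6750, 6433, 4965 and 6873 in FL and at 8403, 3856 and 6669 in WT livers. *Orm2* was at 610, 482, 117 and 370 in FL and at 512, 90 and 516 in WT livers. *Orm3* was at 228, 253, 20 and 284 in FL and at 239, 8 and 356 in WT livers. All 3 were lowest in FL replicate 3 among FL livers and in WT replicate 2 among WT livers, opposite to *Hp* and *Hpx*. *Orm3* differed 44.5-fold between its highest and lowest liver, the widest range of any member. The log2 fold changes of 0.05, 0.22 and 0.57 had SEs of 0.26, 0.75 and 1.41, and without those 2 livers they were -0.16, -0.11 and -0.20. On the linear scale the mean was already lower in FL for *Orm1* (6255 against 6309) and *Orm3* (196 against 201). Of the 36-base stretches, 25.7% of *Orm1* and 30.8% of *Orm2* occur in other genes, so their counts are uncertain.

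The pentraxins *Crp* (C-reactive protein) and *Apcs* (serum amyloid P, the main pentraxin of the acute phase in mice) both lie on chromosome 1. *Crp* ran from 2944 to 3548 in FL and from 2645 to 3434 in WT livers, the narrowest range of the positive genes at 1.34-fold (log2 fold change 0.05, SE 0.13, 95% interval -0.25 to 0.35). It turned to -0.04 with quantile normalisation and to -0.06 with equal totals. *Apcs* was at 1487, 1173, 2312 and 2062 in FL and at 1477, 1469 and 1260 in WT livers, where the highest and the lowest values both came from FL livers (log2 fold change 0.28, SE 0.23).

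The inter-alpha-trypsin inhibitor heavy chains bind hyaluronan. *Itih3* and *Itih4*, the chains raised in the acute phase, had log2 fold changes of 0.26 (SE 0.17) and 0.28 (SE 0.17), with 13726 to 23797 normalised counts for *Itih3* and 21350 to 38066 for *Itih4*. *Itih1* was at 11458, 11988, 14487 and 12007 in FL and at 10363, 10721 and 10018 in WT livers, with no overlap (log2 fold change 0.26, SE 0.12, exact permutation p = 0.057). *Itih2*, a negative acute phase gene, had 0.06 (SE 0.18) and turned to -0.12 with quantile normalisation. Ceruloplasmin (*Cp*), a copper-binding oxidase, had 0.09 (SE 0.20) and turned to -0.05 with quantile normalisation.

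The last positive genes are *Steap4*, a metalloreductase, and *Il1rn*, the IL-1 receptor antagonist, and these were the 2 members with a lower mean log2 value in FL livers. *Steap4* was at 1115, 807, 1316 and 815 in FL and at 1007, 1403 and 775 in WT livers. Its log2 fold change of -0.06 (SE 0.25) changed to 0.03 without FL replicate 3 and WT replicate 2. *Il1rn* was at 1373, 467, 310 and 344 in FL and at 1244, 261 and 654 in WT livers, high in replicate 1 of both genotypes (log2 fold change -0.22, SE 0.64). Neither difference exceeded the spread between livers.

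All 6 negative acute phase genes were on average higher in FL livers with the scaling of the authors. With quantile normalisation 2 of 6 were (52.3% of all genes), and with equal totals 3 of 6 (25.4%). Albumin (*Alb*), the main plasma protein, was at 1118758, 1251391, 1511638 and 1389166 in FL and at 956556, 1200274 and 1031218 in WT livers. FL replicate 1 lay below WT replicate 2, and the other FL livers were above all WT livers (log2 fold change 0.31, SE 0.29). Transthyretin (*Ttr*), a carrier of thyroid hormone and retinol, was at 68660, 72689, 75633 and 85481 in FL and at 54970, 67365 and 51671 in WT livers. These did not overlap (log2 fold change 0.39, SE 0.16, limma unadjusted p = 0.046, exact permutation p = 0.029). Transferrin (*Trf*), the iron carrier, ran from 37355 to 48846 in FL and from 31753 to 39528 in WT livers (0.28, SE 0.16), but 80.4% of its transcript stretches are shared with an overlapping gene model. *Ahsg* (fetuin-A, an inhibitor of calcification) and *Ambp* (alpha-1-microglobulin and bikunin) had 0.10 (SE 0.24) and 0.07 (SE 0.14).

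The median log2 fold change was 0.34 over the 23 positive genes and 0.19 over the 6 negative ones, of which 21 and 6 were higher in FL. The difference of the medians was 0.15. With quantile normalisation the negative genes had a median of -0.04 and 2 of 6 were higher in FL, and with equal totals 0.08 and 3 of 6. The median of all genes was 0.01 with quantile normalisation and -0.10 with equal totals. In that quantile setting *Alb* carries no information, since it was the highest gene in every liver. Without FL replicate 3 and WT replicate 2, the medians were 0.25 and 0.27, so their difference turned to -0.02.

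The other secreted or surface members had a median of 0.43, and all 6 were higher in FL under each scaling. *Serpina3m* and *Serpina3k*, protease inhibitors of the same cluster as *Serpina3n*, are read from overlapping gene models, and 30.05% and 20.6% of their 36-base stretches occur in other genes. *Serpina3m* was at 8030, 8631, 6098 and 10161 in FL and at 6772, 3433 and 4906 in WT livers (log2 fold change 0.74, SE 0.25, limma unadjusted p = 0.020). *Serpina3k* was at 199431, 227176, 168151 and 251365 in FL and at 183357, 71530 and 185009 in WT livers. Its WT value rested on WT replicate 2, and without that liver the log2 fold change went from 0.64 to 0.18. *Pigr*, which carries IgA into bile, had 0.27 (SE 0.16), and *Serpina10*, an inhibitor of coagulation factor Xa, had 0.13 (SE 0.13).

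All 5 signalling members were on average higher in FL livers, except that *Il6st* turned lower with quantile normalisation and *Il6st* and *Socs3* with equal totals. *Stat3* was at 3810, 3959, 3859 and 3547 in FL and at 3692, 3064 and 3118 in WT livers, where only FL replicate 4 lay within the WT range (log2 fold change 0.21, SE 0.11, 95% interval -0.04 to 0.46). *Socs3*, the feedback inhibitor and a direct STAT3 target, was at 386, 511, 475 and 397 in FL and at 385, 588 and 352 in WT livers. Its means were 442 ± 60.6 (SD, n = 4) and 442 ± 128 (SD, n = 3), with a log2 fold change of 0.03 (SE 0.20, 95% interval -0.43 to 0.49) that turned to -0.08 with equal totals. *Il6st* ran from 3323 to 4451 in FL and from 3438 to 4203 in WT livers (0.04, SE 0.13), and turned to -0.03 with quantile normalisation and -0.07 with equal totals. *Il6ra* was at 1059, 1076, 923 and 849 in FL and at 1114, 477 and 1140 in WT livers, low in WT replicate 2 alone. Without that liver its log2 fold change went from 0.20 (SE 0.30) to -0.21. *Il1r1*, the IL-1 receptor, was at 1577, 1536, 541 and 1354 in FL and at 1289, 346 and 1405 in WT livers, low in both livers that stood apart (0.43, SE 0.56, and 0.14 without them).

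Of the other genes of the pathway, none passed the adjusted test. The ligands *Il6*, *Osm*, *Il11* and *Il22* were not analysed here, and 4 of the remaining 7 were high enough to be tested, with 1 higher and 3 lower in FL. *Il1a* and *Il1b*, encoding the IL-1 cytokines, had log2 fold changes of -0.77 (SE 0.32, limma unadjusted p = 0.046) and -0.74 (SE 0.44), and *Clcf1*, a ligand of the CNTF receptor, had -0.09 (SE 0.19). These were low genes, with 19 to 64 normalised counts for *Il1a* and 17 to 65 for *Il1b*, both highest in WT replicate 2, where the macrophage markers were also highest, and the part of these cells in the values was not tested. The values were -0.55 and -0.46 without FL replicate 3 and WT replicate 2. Among 10 receptors tested, 6 were higher and 4 lower in FL. *Il1rap*, the accessory chain of the IL-1 receptor, was at 1739, 1494, 1835 and 1733 in FL and at 1383, 1079 and 1292 in WT livers, without overlap (0.45, SE 0.12, limma unadjusted p = 0.0073). *Cntfr*, that receptor's binding chain, had 0.38 (SE 0.23) and *Tlr4*, the receptor for lipopolysaccharide, -0.52 (SE 0.32).

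Of 19 kinases, adaptors and transcription factors, 12 were higher and 7 lower in FL, and the 3 with the smallest p were the C/EBP factors, which bind acute phase promoters. *Cebpb* was at 3958, 4934, 2188 and 3774 in FL and at 2330, 1259 and 2690 in WT livers (0.84, SE 0.33), overlapping because FL replicate 3 was low. It was 0.74 (SE 0.12, limma adjusted p = 0.12) without FL replicate 3 and WT replicate 2, and every remaining FL liver was then above every WT liver, as for 12.8% of all genes. *Cebpd* was at 224, 247, 226 and 315 in FL and at 192, 167 and 187 in WT livers, without overlap (0.46, SE 0.15). *Cebpa* had 0.31 (SE 0.13), also without overlap, where 2.77% of all genes had every FL liver above every WT liver. The unadjusted limma p was 0.037 for *Cebpb*, 0.017 for *Cebpd* and 0.038 for *Cebpa*. Of all genes, 1.59% were higher in FL at an unadjusted p under 0.05. Of 8 inhibitors 5 were higher and 3 lower, and *Nfkbia* (which holds NF-kB in the cytoplasm), *Pias3* (an inhibitor of STAT3) and *Ptpn2* (a phosphatase of JAK and STAT proteins) had 0.25 (SE 0.14), -0.19 (SE 0.21) and 0.24 (SE 0.29).

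Of 22 further positive acute phase or STAT3 target genes tested, 19 were higher and 3 lower in FL, with a median of 0.30, and 7 of the 22 (31.8%) had every FL liver above every WT liver, against 2.77% of all genes and 4.83% of those with a mean of at least 1000. *Fgl1*, a hepatocyte protein related to fibrinogen, was at 4651, 5094, 6118 and 5926 in FL and at 4404, 3446 and 3155 in WT livers (0.58, SE 0.16). *Serpina1e* and *Serpina1d*, copies of the alpha-1-antitrypsin gene that are near identical, so that their counts are uncertain, had 1.05 (SE 0.35) and 0.38 (SE 0.13). Of 10 further negative genes, 8 were higher and 2 lower in FL. *Apoa1*, the main protein of high-density lipoprotein, was at 144629, 183396, 208540 and 208104 in FL and at 121251, 114388 and 116468 in WT livers (0.65, SE 0.20, limma unadjusted p = 0.011), while *Apom* and *Apoa2* had 0.30 (SE 0.15) and 0.37 (SE 0.20).

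Within a genotype, the positive genes varied more from liver to liver than the other groups. The median SD of their log2 values was 0.36 (range 0.16 to 2.31), against 0.18 for the negative genes, 0.29 for the signalling genes and 0.26 for all genes tested. FL replicate 3 was the highest of the 7 livers for 22 of 40 members, against 11.7% of all genes, and WT replicate 3 was the lowest for 22, against 10.7%. WT replicate 2 was the highest for 5 members and the lowest for 12, against 31.6% and 34.0% of all genes. FL replicate 3 and WT replicate 2 were each the highest of their own genotype for 17 members and each the lowest for 8, against 28.6% and 28.8% of all genes. In these livers the macrophage markers were also the highest of their genotype, and FL replicate 3 had the most estimated reads (19.5 M, the other FL livers 11.9 to 15.5 M). The part of these in the members' values was not tested. The 8 members lowest in both were *Orm1*, *Orm2*, *Orm3*, *Cd14*, *Il1rn*, *Il1r1*, *Serpina3m* and *Serpina3k*. *Saa1* and *Saa2* were high in FL replicate 3 but not in WT replicate 2, at 2.04 and 2.09 above the other FL livers and -0.19 and 0.04 from the other WT livers on the log2 scale.

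**Figure D4:**
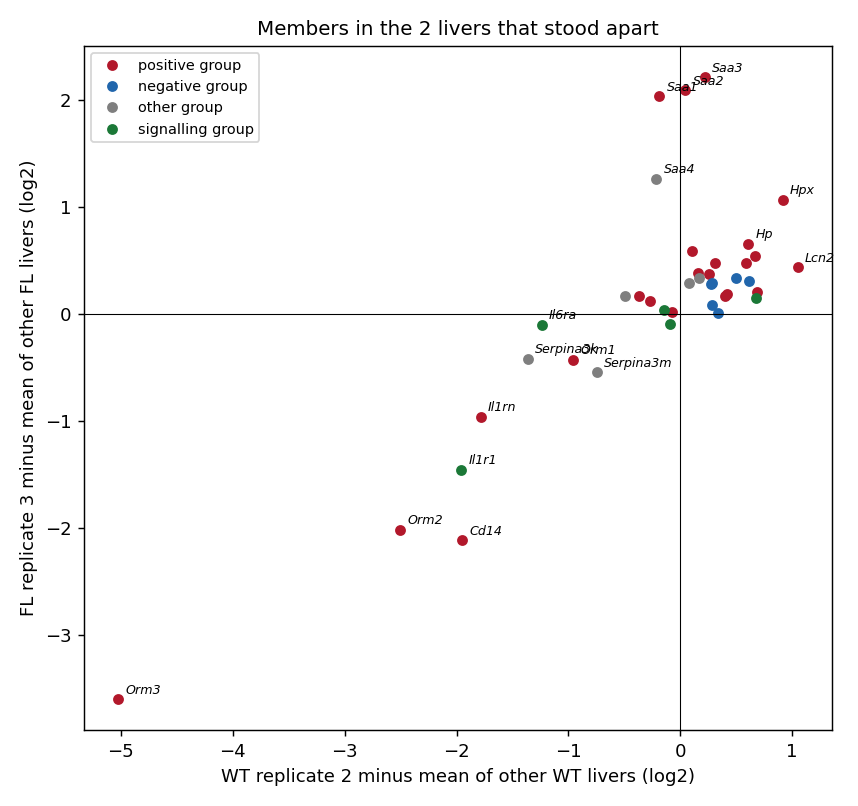
Each point is a member, with WT replicate 2 minus the mean of the other WT livers on the x axis and FL replicate 3 minus the mean of the other FL livers on the y axis, both as log2(normalised count + 1). *Orm3*, *Orm2*, *Cd14* and *Il1r1* lay at the lower left, low in both livers, while *Saa1*, *Saa2* and *Saa3* lay high on the y axis near 0 on the x axis.

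On levels per kilobase of transcript, which allow genes to be compared, *Alb* was the highest member at 594114 normalised counts per kilobase over the 7 livers, followed by *Ahsg* at 103522, *Serpina3k* at 89313 and *Hpx* at 67062. *Saa1* was at 2624 on this scale, *Lcn2* at 845, *Stat3* at 792, *Il6st* at 438, *Il6ra* at 284, *Il1r1* at 198 and *Socs3* at 173, the lowest of all members. The order differed between livers, since *Serpina3k* lay above *Ahsg* in every liver except FL replicate 3 and WT replicate 2, where it lay below both *Ahsg* and *Hpx*.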

How the data were processed

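Liver polyA RNA from 4 FL and 3 WT mice was sequenced in both directions after stranded library preparation. Per the labels and the methods of the study, the authors mapped reads to the mouse genome (Ensembl release 75) with TopHat2 (2.0.13) and Bowtie2 (2.2.6.0), used HTSeq for counting, and applied the size factors of DESeq2. What they deposited are the resulting whole-number normalised values, which were treated as a score on the scale of the authors, not as counts. The table held 14988 rows for 14851 genes, of which 120 stood on more than 1 row and were kept once. Symbols and coordinates came from GENCODE release M21 on GRCm38, and sequences from RefSeq on GRCm38.p6.

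Samples were grouped by the genotype in their labels. The genotypes were compared in R (4.3.3) by limma (3.58.1; lmFit, then eBayes with trend), after adding 1 to the normalised count and taking log2. The 12545 genes averaging 10 or more were fitted, all 40 members among them, with Benjamini-Hochberg adjustment over all of them and a threshold of 0.05. A fold change on this scale understates that of low genes. The p-values measure the spread between mice. For single genes the difference of mean log2 values was also set against all 35 relabellings of the livers (exact permutation, two-sided). Estimated reads came from the spacing of low values, and counting error was not used for any interval. The fit was tested on simulated livers with known changes of at least 1 log2 unit, in genes with a mean of at least 50. The spread of each simulated gene was capped at the median over all genes. The simulation therefore does not show how the fit finds smaller changes or changes in genes that vary more. Tables and plots were made in Python 3.11.15 (pandas 2.3.3, NumPy 2.4.6, Matplotlib 3.10.9).

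The members and gene lists were chosen with earlier results of these data known, so lists are described by counts and medians beside those of all genes, without a test. Named were all 40 members, *Trp53*, and of each further pathway list the up to 3 genes with the smallest p. Alternatives were pseudocounts of 0.5 and 5, no filter, a mean of at least 50, quantile normalisation, TMM scaling (log ratios trimmed by 0.3, levels by 0.05), robust hyperparameters, no trend, a replicate block, leaving out each liver, and leaving out both FL replicate 3 and WT replicate 2. Equal totals were added after the data were seen.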

Additional observations from a re-analysis of the deposited data

Results flagged for a closer look

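In 6 of the 40 members 1 of the 4 FL livers lay far from the other 3, with a gap to the nearest, relative to the whole range, above the 95% critical value of Dixon, where chance gives about 1 in 20 groups. Of all 12545 genes tested 6.75% met the same rule, 4.48% through FL replicate 3, against 15.0% of the members. The members were read in the same livers and are not independent. The liver was FL replicate 3 each time. It was the highest for *Saa3* (360 normalised counts, the other FL livers 64 to 86), *Hp* (65285, the others 39648 to 42768) and *Hpx* (169915, the others 78597 to 84829). It was the lowest for *Orm3* (20, the others 228 to 284), *Cd14* (399, the others 1492 to 1900) and *Il1r1* (541, the others 1354 to 1577). The WT group of 3 was not examined in this way. Without FL replicate 3 the log2 fold changes were -0.11 for *Saa3*, 0.25 for *Hp*, -0.18 for *Hpx*, 1.48 for *Orm3*, 0.84 for *Cd14* and 0.79 for *Il1r1*.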

How the results depend on the processing

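No member was called in any of the 18 settings, and 38 of the 59 named genes kept their direction and side of the threshold in all of them; over all genes and settings this held for 988 of 1059 values. Whether the replicate numbers pair the mice was not settled, and FL replicate 4 has no partner. Deviations of same-numbered livers correlated at 0.44, -0.48 and -0.66 (mean -0.24). These values cannot decide it, because FL replicate 3 and WT replicate 2 stood apart under different numbers. With the replicate block limma called 0 genes (113 at an unadjusted p under 0.05) and 0 members, and *Orm1* turned to -0.0011 and *Steap4* to 0.038.

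The count of all genes called, 2 in the fit as reported, was 0 in limma without a trend (465 at an unadjusted p under 0.05), 0 with a mean of at least 50 (316), 0 with a pseudocount of 5 (404), 1 with quantile normalisation and 6 without FL replicate 3 and WT replicate 2. Leaving out each liver gave 0 to 5. The count of members whose genotypes do not overlap in either direction was 5 (4.76% of all genes). It was 2 with quantile normalisation (4.83%) and 2 with equal totals (6.33%), *Lrg1* and *Serpina3n* both times. Both were higher in FL, where 2.84% and 0.74% of all genes had every FL liver above every WT liver. Without FL replicate 3 and WT replicate 2 the count was 20 (27.4%), of which 18 were higher (12.8%) and *Crp* and *Il6ra* lower (14.6%). Leaving out single livers gave 5 to 17, with 8 without FL replicate 2 (6.54%), 10 without FL replicate 4 (6.46%) or WT replicate 1 (9.07%), and 17 without WT replicate 2 (19.8%). The difference of the positive and negative medians turned to -0.015 without FL replicate 3 and WT replicate 2 (0.048 to 0.24 over single livers), and the negative median to -0.038 with quantile normalisation.

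With quantile normalisation *Ahsg* turned to -0.17, *Ambp* to -0.076, *Cp* to -0.053, *Crp* to -0.038, *Hpx* to -0.064, *Il6st* to -0.029, *Itih2* to -0.12 and *Orm1* to -0.031. With equal totals *Ahsg* turned to -0.011, *Ambp* to -0.039, *Cp* to -0.026, *Crp* to -0.063, *Hpx* to -0.029, *Il6st* to -0.073, *Itih2* to -0.051, *Orm1* to -0.063 and *Socs3* to -0.082. Without FL replicate 3 and WT replicate 2 *Clcf1* turned to 0.14, *Crp* to -0.12, *Il6ra* to -0.19, *Orm1* to -0.16, *Orm2* to -0.11, *Orm3* to -0.20, *Ptpn2* to -0.020, *Saa3* to -0.043 and *Steap4* to 0.030. Leaving out single livers gave ranges that crossed 0 for *Ahsg* (-0.0075 to 0.30), *Ambp* (-0.011 to 0.17), *Cd14* (-0.34 to 0.84), *Clcf1* (-0.24 to 0.054), *Cp* (-0.034 to 0.28), *Crp* (-0.076 to 0.11), *Hpx* (-0.18 to 0.39), *Il1r1* (-0.22 to 0.79), *Il1rn* (-0.82 to 0.31), *Il6ra* (-0.21 to 0.41), *Il6st* (-0.034 to 0.13), *Itih2* (-0.080 to 0.23), *Orm1* (-0.27 to 0.29), *Orm2* (-0.61 to 0.73), *Orm3* (-1.10 to 1.56), *Pias3* (-0.32 to 0.0095), *Ptpn2* (-0.13 to 0.46), *Saa3* (-0.11 to 0.71), *Socs3* (-0.12 to 0.25) and *Steap4* (-0.26 to 0.17). The cause was not tested. With 4 against 3 mice, the exact test cannot go below 0.029. The depth limits *Orm3*, at 8 and 20 normalised counts in 2 livers, more than the other members.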
